A study of Mus musculus with 150 samples.

Results

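The dentate gyrus of the adult mouse hippocampus was compared with the pyramidal fields CA1 and CA3 on 13 of the 150 Affymetrix arrays of a survey of mouse brain and body tissues. The members were chosen by the tissue and strain in the sample titles. They were 4 dentate gyrus arrays (2 of strain 129 and 2 of B6), 5 CA1 arrays (2 of 129 and 3 of B6) and 4 CA3 arrays (2 of 129 and 2 of B6). All mice were described as wild type and inbred, the labels name no treatment, and age and sex were not used here. CA1 and CA3 were given equal weight and strain was a term of the model. The 3 arrays of DBA CA1 and CA3 were left out because the survey has no DBA dentate gyrus. Each title also carries a pool code and a range of numbers, which were read as the animals pooled for the sample. The code JD2 was on 6 of the 13 arrays, 1 in each subfield of each strain, and other codes were on the remaining 7. The array of the JD2 pool is the one given first within each strain below.

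Cortical input reaches the hippocampus mainly through the dentate gyrus. Its principal neurons, the granule cells, receive input from the entorhinal cortex and send mossy fibres to the CA3 pyramidal cells and to the mossy cells of the hilus. CA3 pyramidal cells project to CA1, the main output field. Dissected dentate gyrus therefore holds granule cells, hilar mossy cells, interneurons and glia, and tissue of either CA field can be taken with it.

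The 13 arrays had been brought to a like level: the median intensity per array lay between 48.1 and 57.0 and the 75th percentile between 174 and 179. The ratio of the 3′ to the 5′ Gapdh control probe sets, a measure of RNA quality, was 0.974 to 1.06 in the dentate arrays, 0.969 to 1.41 in CA1 and at most 1.2 in CA3. The same ratio for actin was less even, at 1.63 to 2.72 in the dentate arrays, 1.71 to 2.90 in CA1 and 1.61 to 2.34 in CA3. In the dentate gyrus it was 2.42 and 2.72 in the JD2 arrays and 1.64 and 1.63 in the others. The part of RNA quality in differences between pools was not tested. Of 18 genes that differed by strain in 67 other neural arrays, 17 separated the 129 from the B6 arrays here. An unlogged intensity is printed for each array, with values under the floor of 10.4 raised to it, and differences are log2 differences with their standard errors over the 13 arrays. Genes were tested with limma, and a gene was called when its Benjamini-Hochberg adjusted p was under 0.05 and its difference was at least 1 on the log2 scale, which is 2-fold.

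2 of the CA libraries stood apart from their group. The library labelled CA3 129 replicate 2 carried CA1 markers at levels seen in CA1: Wfs1 was 1182 in it against 358 to 639 in the other CA3 arrays and 755 to 1895 in CA1. In the same library Stac was 65.6, against 10.4 to 31.4 in the other CA3 arrays and 49.3 to 86.6 in CA1. Its Bok, a CA3-listed gene, was 207 against 379.8 to 645 in the other CA3 arrays. Other genes that differed between the fields were not at CA1 levels there: Fn1, which codes for fibronectin, was 159.9 against 211 to 365 in CA1, and Syt2 was 80.0 against 139 to 265. The library labelled CA1 B6 replicate 2 had the highest Gapdh ratio, 1.41. It held Dsp at 251 and Npy2r at 614, against 61.0 to 85.2 and 91.0 to 178 in the other CA1 arrays. Whether these libraries hold tissue of a neighbouring field was not tested, and where a call against the CA mean of a gene described below changes without one of them, the value without it is given.

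Against the mean of CA1 and CA3, 5 genes were higher and 7 lower in the dentate gyrus of 4954 tested (0.101% and 0.141%, or 0.242% in either direction). Higher were Calb2, Zfpm2, Npnt, Nptx1 and Smoc2. Lower were Pbx3, Ccn3, Nr4a1, Ldb2, Wfs1, Syt2 and Tyro3. In bulk tissue, fewer cells of a type and less RNA per cell cannot be told apart, and this holds for each difference given here. At the adjusted p alone, 11 genes were higher and 21 lower (0.222% and 0.424%). All 4 dentate arrays were above all 9 CA arrays for 17 genes (0.343%) and below them for 26 (0.525%). The calls depended on the filter on dim genes, since none of them passed when all 8251 genes were tested and Calb2 then had an adjusted p of 0.0715. Without CA1 B6 replicate 2, 21 genes were called, without CA3 129 replicate 1, 19, and without dentate gyrus 129 replicate 1, 7; the fit with the pool code as a replicate block called 27 (0.545%). CA1 B6 replicate 2 is alone in its pool code and adds nothing to the difference in that fit, and 3 arrays are alone in their pool name (this one, CA1 129 replicate 2 and dentate gyrus B6 replicate 2) and add nothing in the fit with identical pool names as a block.

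Calb2 codes for calretinin, a calcium-binding protein that marks hilar mossy cells and young granule cells in the mouse, and was a marker given for the dentate gyrus. Its intensities were 659.7 and 446 in 129 and 395 and 209 in B6 in the dentate gyrus, 98.6 and 101 in 129 and 97.9, 72.5 and 89.5 in B6 in CA1 and 164 and 65.2 in 129 and 139 and 158 in B6 in CA3. Every dentate array was above every CA array, and the lowest was the B6 array outside the JD2 pool. The difference from the CA mean was 1.88 ± 0.27 (limma adjusted p = 0.00522). It was 2.09 ± 0.30 against CA1 (adjusted p = 0.00145) and 1.67 ± 0.32 against CA3 (adjusted p = 0.167), fits that share the dentate arrays. The call held in each of the 13 fits that left out 1 array. The difference from the CA mean was 2.42 in the 129 arrays alone and 1.35 in the B6 arrays alone, called in neither. The B6 minus 129 difference of the contrast, -1.07 ± 0.47, had an unadjusted limma p of 0.0428 and did not pass the adjusted p.

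Dsp codes for desmoplakin, which ties cell junctions to intermediate filaments and is a known marker of granule cells. It measured 433 and 158 in 129 and 485 and 287 in B6 in the dentate gyrus, 85.2 and 71.1 in 129 and 75.2, 251 and 61.0 in B6 in CA1 and 100 and 143 in 129 and 112 and 205 in B6 in CA3. The groups overlapped: the dentate array of 129 outside the JD2 pool, at 158, lay below CA1 B6 replicate 2 at 251 and CA3 B6 replicate 2 at 205. The difference of 1.50 ± 0.34 was not called (adjusted p = 0.0624). It was called without CA1 B6 replicate 2 (1.66, adjusted p = 0.0127) and with the pool code as a replicate block (1.66, adjusted p = 0.00322). Against CA1 the difference was 1.79 ± 0.38 and was called (adjusted p = 0.0175); against CA3 it was 1.21 ± 0.40 (adjusted p = 0.902). Of the desmosome list, 5 of 12 genes on the array were tested, none was called and the median difference was 0.18, against -0.001 over all genes tested. The other largest difference in that list was Jup, plakoglobin, at -0.32 ± 0.28 (adjusted p = 0.825).

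**Figure D1:**
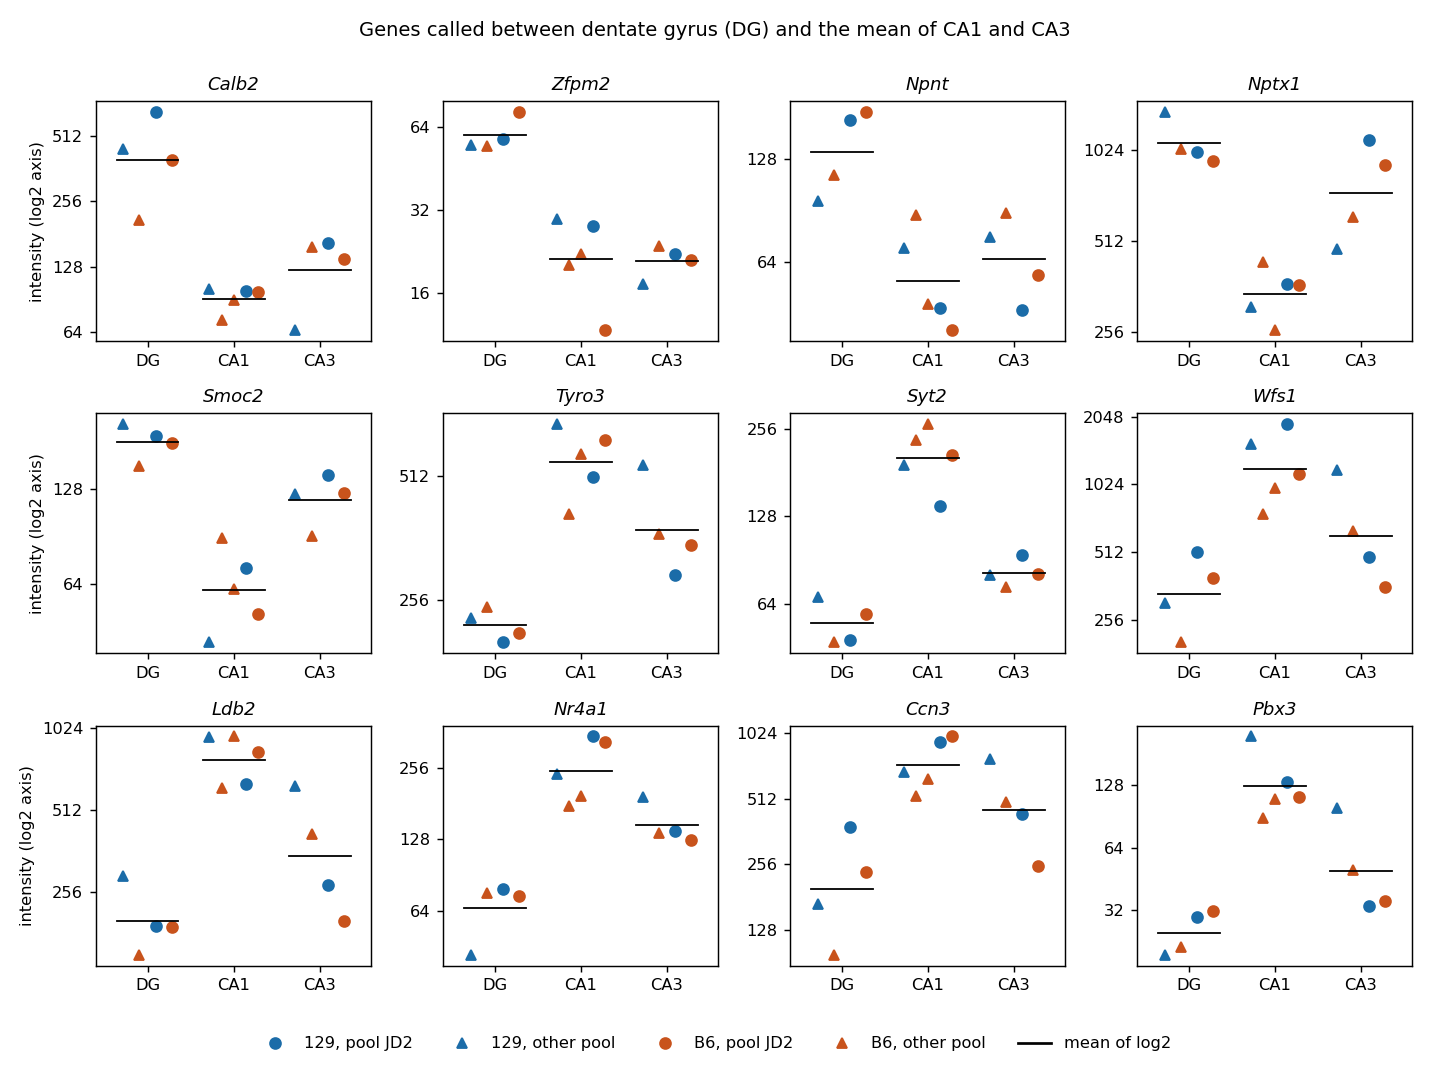
Intensity of the 12 called genes on each of the 13 arrays, on a log2 axis; colour gives the strain, circles the JD2 pools, triangles the other pools, and the black bar the mean of the log2 values of the field. Calb2 and Zfpm2 in the dentate gyrus lie above all CA arrays, while for Wfs1, Ccn3 and Ldb2 the lowest CA3 arrays reach into the dentate range.

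Among secreted and matrix proteins, Npnt, Smoc2 and Nptx1 were higher in the dentate gyrus and Ccn3 was lower. Npnt codes for nephronectin, a matrix ligand of integrins. It measured 167 and 96.9 in 129 and 176 and 115 in B6 in the dentate gyrus, 47.1 and 70.5 in 129 and 40.5, 87.8 and 48.2 in B6 in CA1 and 46.5 and 75.9 in 129 and 58.5 and 89.0 in B6 in CA3. No CA array reached the lowest dentate value, and the JD2 dentate arrays were the highest. The difference was 1.15 ± 0.24 (adjusted p = 0.0403), a call that was lost in 9 of the 13 fits without 1 array, where adjusted p reached 0.1896. With an offset of 50 in place of the floor it was 0.74, under the threshold. In the pools other than JD2 alone it was 0.52 and not called (limma adjusted p = 0.669).

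Smoc2, a secreted calcium-binding matrix protein, measured 189 and 206 in 129 and 180.5 and 152 in B6 in the dentate gyrus, 71.8 and 41.7 in 129 and 51.5, 89.4 and 61.9 in B6 in CA1 and 142 and 124 in 129 and 125 and 90.7 in B6 in CA3. CA3 lay between the other fields without overlapping either. Its difference was 1.08 ± 0.19 from the CA mean (adjusted p = 0.0128), 1.56 ± 0.21 from CA1 and 0.61 ± 0.22 from CA3. The same order held for the means of Nptx1, a neuronal pentraxin that binds AMPA receptors. Nptx1 measured 1003 and 1363 in 129 and 941 and 1030.0 in B6 in the dentate gyrus, 368 and 309.6 in 129 and 365, 437 and 259.6 in B6 in CA1 and 1099.5 and 483 in 129 and 914 and 611 in B6 in CA3, and the CA3 array of the 129 JD2 pool lay above 3 of the 4 dentate arrays. The differences of Nptx1 were 1.09 ± 0.20 (adjusted p = 0.0159), 1.64 ± 0.22 from CA1 and 0.54 ± 0.23 from CA3. The call of Nptx1 was lost in 5 of the 13 fits without 1 array: without CA3 129 replicate 2 the difference was 0.96, under the 2-fold threshold, and without each of the 4 dentate arrays the adjusted p was 0.052 to 0.0773. It was also lost with identical pool names as a block (1.07, adjusted p = 0.0577) and with the DBA arrays in the fit (1.11, adjusted p = 0.0515). In the JD2 pools alone the difference of Nptx1 was 0.68, under the threshold. The call of Smoc2 was lost in 4 of the 13, without CA1 129 replicate 2 (0.99) and without each dentate array but B6 replicate 2 (adjusted p = 0.052 to 0.0683).

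Frzb, a secreted antagonist of Wnt signalling, had a difference from the CA mean of 2.15 ± 0.54 and was not called (adjusted p = 0.0903). The size depends on the floor: with a floor of 32.8 in place of 10.4 it was 1.56, below the 1.88 of Calb2, and was called (adjusted p = 0.0325). It measured 147 and 167 in 129 and 154 and 148 in B6 in the dentate gyrus, 20.1 and 10.4 in 129 and 43.9, 47.8 and 10.4 in B6 in CA1 and 131 and 13.2 in 129 and 144 and 49.0 in B6 in CA3. The dentate arrays lay close together and above all others, CA1 held the lowest values, with 2 arrays at the floor of 10.4, and the JD2 arrays of CA3 came near the dentate gyrus. Against CA1 the difference of 2.91 ± 0.60 was called (adjusted p = 0.0159). With the pool code as a replicate block the difference from the CA mean was 2.26 and was called (adjusted p = 0.00724), as it was without CA3 129 replicate 1 (2.44, adjusted p = 0.0301); in the JD2 pools alone it was 1.24 (adjusted p = 0.00117). Of 17 genes of the Wnt pathway tested of 36 on the array, none was called and the median difference was -0.08. Wnt7b, a Wnt ligand, was next in size at 0.56 ± 0.18 (adjusted p = 0.222) and its dentate arrays were above all CA arrays. Wnt7b passed the filter on dim genes through the dentate gyrus alone.

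Ccn3, a matricellular protein of the CCN family, measured 381 and 169 in 129 and 237 and 98.3 in B6 in the dentate gyrus, 932 and 680.1 in 129 and 992, 530.5 and 632 in B6 in CA1 and 439 and 784 in 129 and 251 and 497 in B6 in CA3. The B6 JD2 array of CA3, at 251, lay below the 129 JD2 array of the dentate gyrus at 381. The difference was -1.58 ± 0.29 (adjusted p = 0.0163) and was not called with identical pool names as a block (-1.39, adjusted p = 0.0928) or without either dentate array outside the JD2 pools (adjusted p = 0.0773 and 0.0868).

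Transcription regulators gave called genes in both directions. Zfpm2, a zinc finger cofactor of GATA factors, measured 57.8 and 55.1 in 129 and 72.5 and 54.7 in B6 in the dentate gyrus, 27.9 and 29.7 in 129 and 11.7, 20.1 and 22.1 in B6 in CA1 and 22.0 and 17.2 in 129 and 20.9 and 23.6 in B6 in CA3. Dentate values were above all CA values, and the difference was 1.47 ± 0.27 from CA1 and 1.52 ± 0.28 from CA3. Zfpm2 passed the filter on dim genes through the dentate gyrus alone, with log2 means of 5.90 there, 4.42 in CA1 and 4.38 in CA3. Its separation therefore rests in part on that filter. The difference from the CA mean was 1.50 ± 0.24 (adjusted p = 0.0105). All of these levels were low, and with a floor of 32.8 in place of 10.4 the difference was 0.87 and under the threshold; without dentate gyrus B6 replicate 1 it was 1.36 and not called (adjusted p = 0.0752).

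Pbx3, a homeodomain factor, was dim in the dentate gyrus at 29.6 and 19.6 in 129 and 31.7 and 21.4 in B6. Pbx3 passed the filter on dim genes through CA1 alone. It measured 132 and 218 in 129 and 112, 88.8 and 109.7 in B6 in CA1 and 33.7 and 98.7 in 129 and 35.6 and 49.8 in B6 in CA3, so that all dentate values were below all CA values but the JD2 arrays of CA3 came within a few units. The difference was -1.67 ± 0.27 (adjusted p = 0.0105), -2.37 ± 0.30 from CA1 and -0.98 ± 0.32 from CA3. With an offset of 50 in place of the floor the difference from the CA mean was -0.85, under the threshold, and with identical pool names as a block it was -1.61 and not called (adjusted p = 0.0567). Ldb2, a cofactor of LIM-domain factors, was 192 and 293 in 129 and 191 and 151 in B6 in the dentate gyrus against 617 to 954 in CA1 and 201 to 628 in CA3, a difference of -1.39 ± 0.24 (adjusted p = 0.0128) that was not called without dentate gyrus 129 replicate 1 or either dentate B6 array (adjusted p = 0.0602 to 0.0684). Ldb2 in the 2 JD2 arrays of CA3, 273 and 201, lay within the range of the dentate arrays.

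Over the list of forebrain transcription factors, 25 of 30 were tested and 2 were called, Pbx3 and Ldb2, both lower, where 0.141% of all genes tested were called lower; the median difference was -0.09, against -0.001 over all genes. Neurod1, a basic helix-loop-helix factor of granule cell development, was 129 to 180.1 in the dentate gyrus, 69.0 to 123 in CA1 and 79.5 to 137 in CA3 and was not called (0.80 ± 0.18, adjusted p = 0.0632). Mycl, a MYC family factor, had a difference of 1.15 ± 0.27 from the CA mean (adjusted p = 0.0752) and of 1.74 ± 0.30 from CA1 (adjusted p = 0.00538). Against the CA mean Mycl was called without CA1 B6 replicate 2 (1.23, adjusted p = 0.0302) and with the pool code as a block (1.23, adjusted p = 0.00811). Prox1, the homeodomain factor that sets granule cell identity, was too dim to be tested, at 54.5 and 24.2 in 129 and 65.7 and 42.0 in B6 in the dentate gyrus against 10.4 to 34.2 in CA1 and 12.5 to 29.1 in CA3.

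Genes induced by neuronal activity included 1 called gene, Nr4a1, and members on either side of 0; Nr4a2 and Fos were called lower as well when the pool code was a replicate block. The starts of 4 of them are shown because they are the listed early genes with the largest differences down (Nr4a1, Nr4a2, Fos) and up (Jun). Each run is RefSeq GRCm38.p6, from 250 bases before the start of transcription to 50 bases from it, 5′ to 3′ on the strand of the gene. Capitals mark the half-site TGACG of the cyclic AMP response element, read on both strands (CGTCA is the other strand); the full element TGACGTCA would count as 2 half-sites that overlap, and is in none of the 4.
Nr4a1 (chr15:101266596-101266895, plus strand): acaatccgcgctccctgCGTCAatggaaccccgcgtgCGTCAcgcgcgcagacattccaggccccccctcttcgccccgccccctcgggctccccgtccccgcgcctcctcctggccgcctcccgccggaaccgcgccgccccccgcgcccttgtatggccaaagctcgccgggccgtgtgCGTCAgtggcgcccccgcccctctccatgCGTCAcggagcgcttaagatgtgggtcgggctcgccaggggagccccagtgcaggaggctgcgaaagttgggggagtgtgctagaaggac
Nr4a2 (chr2:57123954-57124253, minus strand): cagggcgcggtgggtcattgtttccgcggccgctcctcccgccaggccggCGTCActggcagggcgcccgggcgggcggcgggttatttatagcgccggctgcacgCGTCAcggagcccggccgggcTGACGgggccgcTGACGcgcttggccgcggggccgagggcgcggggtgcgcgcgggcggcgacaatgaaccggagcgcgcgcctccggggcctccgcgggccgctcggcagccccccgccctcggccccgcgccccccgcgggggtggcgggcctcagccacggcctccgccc
Fos (chr12:85473640-85473939, plus strand): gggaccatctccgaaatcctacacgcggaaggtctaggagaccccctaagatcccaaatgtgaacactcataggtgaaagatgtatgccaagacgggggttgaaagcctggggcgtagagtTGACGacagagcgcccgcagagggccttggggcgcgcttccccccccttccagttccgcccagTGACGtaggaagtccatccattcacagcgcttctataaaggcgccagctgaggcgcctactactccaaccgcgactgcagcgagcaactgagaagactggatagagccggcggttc
Jun (chr4:95052173-95052472, minus strand): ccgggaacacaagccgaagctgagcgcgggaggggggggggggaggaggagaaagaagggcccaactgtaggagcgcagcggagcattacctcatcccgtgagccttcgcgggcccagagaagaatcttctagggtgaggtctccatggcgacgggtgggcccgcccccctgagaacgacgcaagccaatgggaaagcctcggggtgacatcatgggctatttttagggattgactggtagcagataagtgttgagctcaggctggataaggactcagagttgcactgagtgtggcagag
The half-site occurs 4 times in the window of Nr4a1, 4 times in that of Nr4a2, 2 times in that of Fos and 0 times in that of Jun. Of 32851 mouse promoters of 300 bases, 20.8% hold at least 1. A match is a description of the letters and no measure of binding.

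Nr4a1, an orphan nuclear receptor induced within minutes of stimulation, measured 79.0 and 41.6 in 129 and 73.8 and 75.9 in B6 in the dentate gyrus, 349.6 and 241 in 129 and 332, 178 and 196 in B6 in CA1 and 139 and 194 in 129 and 128 and 136 in B6 in CA3. All dentate values were below all CA values. The difference was -1.56 ± 0.21 (adjusted p = 0.0039), -1.95 ± 0.24 from CA1 and -1.17 ± 0.25 from CA3, and the call held in each fit without 1 array. Egr1, a zinc finger factor, passed the adjusted p but not the 2-fold threshold (-0.96 ± 0.16, adjusted p = 0.0111): it was 315 and 402 in 129 and 275 and 341 in B6 in the dentate gyrus, 632 to 1146 in CA1 and 402 to 734 in CA3. Fos, part of the AP-1 factor, was 58.1 and 72.2 in 129 and 38.0 and 17.8 in B6 in the dentate gyrus, 199 and 132 in 129 and 132, 229 and 103 in B6 in CA1 and 80.6 and 58.3 in 129 and 58.4 and 31.1 in B6 in CA3. Fos was lower than in CA1 (-1.96 ± 0.32, adjusted p = 0.00351) and overlapped CA3, and its difference from the CA mean was not called (-1.18 ± 0.28, adjusted p = 0.0786); with the pool code as a replicate block it was (-1.07, adjusted p = 0.00724).

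Jun, the partner of Fos in AP-1, went the other way at the adjusted p alone (0.66 ± 0.14, adjusted p = 0.0482). It measured 437 and 375 in 129 and 446 and 435 in B6 in the dentate gyrus, 211 to 302 in CA1 and 198 to 340.4 in CA3, with all dentate values above all CA values. Nr4a2, a relative of Nr4a1, was lower than in CA1 (-1.76 ± 0.38, adjusted p = 0.0175) and its difference from the CA mean was -1.21 ± 0.34 (adjusted p = 0.153). With the pool code as a replicate block Nr4a2 was called lower than the CA mean (-1.28, adjusted p = 0.000854), as it was with identical pool names (-1.26, adjusted p = 0.0205). Dusp1, a phosphatase of MAP kinases, had all dentate values, 133 to 166, below all CA values, with a difference of -0.41 ± 0.11 (adjusted p = 0.105). Bdnf, the growth factor, was 549 to 757 in the dentate gyrus, 304 to 698 in CA1 and 425 to 556 in CA3 (0.46 ± 0.18, adjusted p = 0.386). In all, 15 of 17 listed early genes were tested and 1 was called. Of the 15, 11 had a difference below 0, against 2498 of all 4954 genes tested. The median was -0.21, against -0.001 over all genes.

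CA1 pyramidal cell markers were the list farthest below 0. All 11 on the array were tested. Called lower against the CA mean were 3 (Ccn3, Ldb2 and Wfs1), where the background is 0.141% lower. Called lower against CA1 were 8, where the background is 0.747% lower and 0.464% higher. The median difference was -1.23 against the CA mean, -1.55 against CA1 and -0.79 against CA3. Wfs1, wolframin of the endoplasmic reticulum, measured 514 and 306 in 129 and 393 and 204 in B6 in the dentate gyrus, 1895 and 1546 in 129 and 1145, 755 and 989 in B6 in CA1 and 491 and 1182 in 129 and 358 and 639 in B6 in CA3. The JD2 arrays of CA3 lay within the range of the dentate arrays, whose JD2 members were the higher. The difference of Wfs1 was -1.38 ± 0.24 (adjusted p = 0.0151) and -0.81 in the JD2 pools alone. It was not called with identical pool names as a block (-1.28, adjusted p = 0.0975), with the DBA arrays in the fit (-1.40, adjusted p = 0.0515), or without either dentate array outside the JD2 pools (adjusted p = 0.0692 and 0.0781). Stac, an adaptor protein, was 14.3 to 19.4 in the dentate gyrus and 49.3 to 86.6 in CA1 (-2.11 ± 0.39, adjusted p = 0.00846). Stac passed the filter on dim genes through CA1 alone. Doc2b, Crym and Epha7, also on the list, had differences of 0.09, 0.25 and 0.39 from the CA mean and were not called.

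Of the CA2 and CA3 markers, 11 of 15 were tested, none was called against the CA mean, and the median was 0.16. Their median was 0.37 against CA1 and -0.16 against CA3. Called higher than in CA1 were 3 of them, against 0.464% of all genes tested. Bok, a BCL2-family protein, measured 318 and 727 in 129 and 360.4 and 798 in B6 in the dentate gyrus, 114 and 127 in 129 and 135, 259.6 and 178 in B6 in CA1 and 641 and 207 in 129 and 645 and 379.8 in B6 in CA3. The dentate arrays outside the JD2 pools were the highest of all 13. Homer3, a postsynaptic scaffold, was 109 to 237 in the dentate gyrus, 41.8 to 74.3 in CA1 and 96.6 to 157 in CA3; it was higher than in CA1 (1.40 ± 0.23, adjusted p = 0.00395) and 0.23 ± 0.24 from CA3.

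Among synaptic and interneuron genes 1 more was called, Syt2. Of the list of synaptic vesicle and general neuron genes, which does not hold Syt2, 15 of 15 were tested and none was called. In that list 9 genes had a difference above 0 and 6 below, against 2456 and 2498 of all 4954 genes tested. Its median was 0.13 against the CA mean, 0.34 against CA1 and -0.04 against CA3. Syt2, a calcium sensor of fast transmitter release that is found in terminals of parvalbumin interneurons, measured 47.9 and 67.5 in 129 and 58.8 and 47.0 in B6 in the dentate gyrus, 139 and 193 in 129 and 207, 233 and 265 in B6 in CA1 and 93.9 and 80.0 in 129 and 80.7 and 72.9 in B6 in CA3. The fields did not overlap and CA3 lay between the others. The difference was -1.23 ± 0.16 (adjusted p = 0.0039), -1.88 ± 0.18 from CA1 and -0.58 ± 0.19 from CA3. Pvalb, parvalbumin, was 440.2 and 626 in 129 and 438 and 529 in B6 in the dentate gyrus, 931 to 1206 in CA1 and 606 to 779.6 in CA3; it passed the adjusted p but not the 2-fold threshold (-0.74 ± 0.10, adjusted p = 0.0039) and was called lower against CA1 (-1.08 ± 0.11, adjusted p = 0.000252). The difference from the CA mean was below 0 for 2498 of all 4954 genes tested and for 10 of the 12 interneuron genes tested of 18. None of the 12 was called against the CA mean, and their median was -0.11. Their summed intensity ran from 7449.9 to 8279.7 in the dentate arrays, 8331 to 11127 in CA1 and 7710 to 9793 in CA3. Sst, somatostatin, was 1119 to 1279.7 in the dentate gyrus against 1509 to 2971 in CA1 and 966 to 1981 in CA3, which overlapped the dentate range (-0.50 ± 0.17, adjusted p = 0.273 against the CA mean).

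Tyro3, a receptor tyrosine kinase that binds Gas6 and protein S, measured 203 and 232 in 129 and 214 and 246 in B6 in the dentate gyrus, 509.9 and 683 in 129 and 624, 415 and 577 in B6 in CA1 and 295 and 544 in 129 and 349 and 372 in B6 in CA3. All dentate values were below all CA values, and the highest CA3 value was that of 129 replicate 2. The difference was -1.04 ± 0.16 (adjusted p = 0.0058) and -0.95 without that CA3 array or -0.98 without dentate gyrus 129 replicate 1, both under the 2-fold threshold. Sez6, a membrane protein of dendrites, had the same kind of separation with a smaller difference: 502 and 447 in 129 and 442 and 446 in B6 in the dentate gyrus against 740.3 to 1031 in CA1 and 662 to 902 in CA3 (-0.81 ± 0.10, adjusted p = 0.0039).

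**Figure D2:**
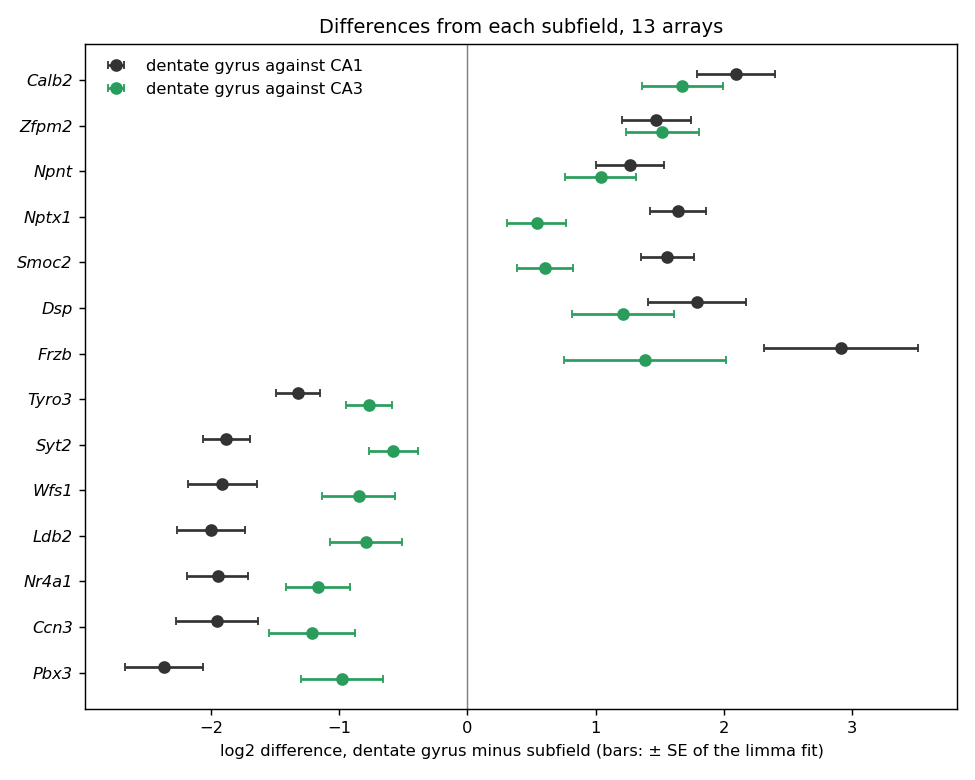
Log2 differences of dentate gyrus from CA1 (black) and from CA3 (green) for the 12 called genes, Dsp and Frzb, with the standard error of the limma fit over 13 arrays as bars. Each gene lies on the same side of 0 in both contrasts, which share the dentate arrays; for Nptx1 the values are 1.64 and 0.54, and for Zfpm2 1.47 and 1.52.

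With CA1 as the sole reference, 23 genes were called higher and 37 called lower (0.464% and 0.747%, or 1.21% in either direction). With values floored at 10.4, the largest differences up were in Frzb (2.91, a value that rests on the floor since 2 of 5 CA1 arrays were at it), Calb2 (2.09) and Npy2r, a receptor of neuropeptide Y (2.00). Npy2r measured 478 and 564 in 129 and 722 and 915 in B6 in the dentate gyrus, 115 and 91.0 in 129 and 178, 614 and 137 in B6 in CA1 and 564 and 251 in 129 and 918 and 603 in B6 in CA3. The CA3 arrays other than 129 replicate 2 ran from 564 to 918, within or close to the dentate range, and its difference from CA3 was 0.30 ± 0.38. The largest differences down were in Pbx3 (-2.37), Stac (-2.11) and Klf5, a zinc finger factor (-2.01). Pbx3, Stac and Klf5 passed the filter on dim genes through CA1 alone. Against the CA mean neither Npy2r (1.15 ± 0.32, adjusted p = 0.157) nor Klf5 (-1.34 ± 0.32, adjusted p = 0.0786) was called. Without CA1 B6 replicate 2 both were, Npy2r at 1.33 (adjusted p = 0.00702) and Klf5 at -1.43 (adjusted p = 0.0499), and with the pool code as a block at the same differences (adjusted p = 0.000854 and 0.00364).

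Against CA3 alone, no gene was called (0.0% by limma), with 218 genes at an unadjusted p under 0.05. The differences of the called genes from CA3 ran from -1.21 for Ccn3 to 1.67 for Calb2. Within the 6 JD2 arrays fitted alone, 36 genes were higher and 30 lower than in CA3 (0.719% and 0.599% of 5008). Within the 7 other arrays, 1 was higher and 6 were lower (0.0197% and 0.118% of 5076). These fits have 2 and 3 residual degrees of freedom, so their errors lean on the spread shared between genes. The difference between strains of the dentate contrast passed an adjusted p of 0.05 for 0 of 4954 genes by limma (0.0%), with 35 at an unadjusted p under 0.05.

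The dentate difference was also fitted within each set of pools. The CA libraries that stood apart from their group, CA3 129 replicate 2 and CA1 B6 replicate 2, are both in the other pools. Each value for the other pools, and each pool difference, therefore carries them. The dentate arrays also differed between the pool sets for some genes. Gabrd was 109 and 123 in the JD2 dentate arrays and 44.1 and 45.8 in the other dentate arrays. Calb1 was split in the same way and Bok the other way. Against the CA mean, 25 genes were higher and 27 lower in the JD2 arrays (0.499% and 0.539%), and 4 higher and 21 lower in the others (0.0788% and 0.414%). An interaction of pool set with the contrast, added after the data were seen, passed an adjusted p of 0.05 for 16 genes (0.323%), with 411 at an unadjusted p under 0.05. It passed for none without a trend in the prior variance or without the filter on dim genes, and for 0 to 27 in the fits without 1 array. The 2 higher dentate Calb1 arrays were those of the JD2 pools. Calb1 codes for calbindin, the calcium-binding protein that fills mature granule cells, and it measured 714 and 211 in 129 and 732 and 249.6 in B6 in the dentate gyrus, 338 and 185 in 129 and 339.5, 289.8 and 186 in B6 in CA1 and 260.5 and 282 in 129 and 178 and 361 in B6 in CA3. In the JD2 pools its difference from the CA mean was 1.42 ± 0.12, and in the others -0.17 ± 0.18 (interaction adjusted p = 0.0381).

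Of 19 granule cell markers on the array, 12 were tested, and 1, Npnt, was called against the CA mean over the 13 arrays, with a list median of 0.59. The median was 1.02 in the JD2 pools and -0.01 in the others; over all genes it was -0.01 and 0.00. Gabrd, the delta subunit of extrasynaptic GABA-A receptors, measured 109 and 44.1 in 129 and 123 and 45.8 in B6 in the dentate gyrus, 57.0 and 61.1 in 129 and 80.7, 51.1 and 50.1 in B6 in CA1 and 37.7 and 42.8 in 129 and 31.6 and 64.0 in B6 in CA3. Its difference was 1.26 ± 0.21 in the JD2 pools and -0.23 ± 0.27 in the others (interaction adjusted p = 0.129). Sipa1l2, which acts on small GTPases, had 1.30 ± 0.13 and 0.02 ± 0.18 (interaction adjusted p = 0.0381). Dsp had 2.31 ± 0.13 and 0.74 ± 0.42 (interaction adjusted p = 0.424). Calb2, by contrast, was 2.07 ± 0.14 in the JD2 pools and 1.70 ± 0.37 in the others, with an interaction of 0.38 ± 0.47. In the other pools alone Calb2 was not called (limma adjusted p = 0.0999).

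The CA2 and CA3 list had a median difference of -0.19 in the JD2 pools and 0.55 in the others, and the CA1 list -0.81 and -1.47. Bok had 0.26 ± 0.11 and 1.81 ± 0.20 (interaction adjusted p = 0.0381). Spock1, a proteoglycan on the CA2 and CA3 list, measured 331 and 852 in 129 and 222 and 526 in B6 in the dentate gyrus, 233 and 229 in 129 and 99.9, 161 and 148 in B6 in CA1 and 664 and 329 in 129 and 499 and 271 in B6 in CA3. In the dentate gyrus the arrays outside the JD2 pools were the higher, and in CA3 those of the JD2 pools. Its difference was -0.13 ± 0.14 and 1.50 ± 0.15 (interaction adjusted p = 0.0266). The values of the other pools carry CA3 129 replicate 2, which had low Bok and some CA1 markers at CA1 levels. How much of a neighbouring field each dissection held was not tested.

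**Figure D3:**
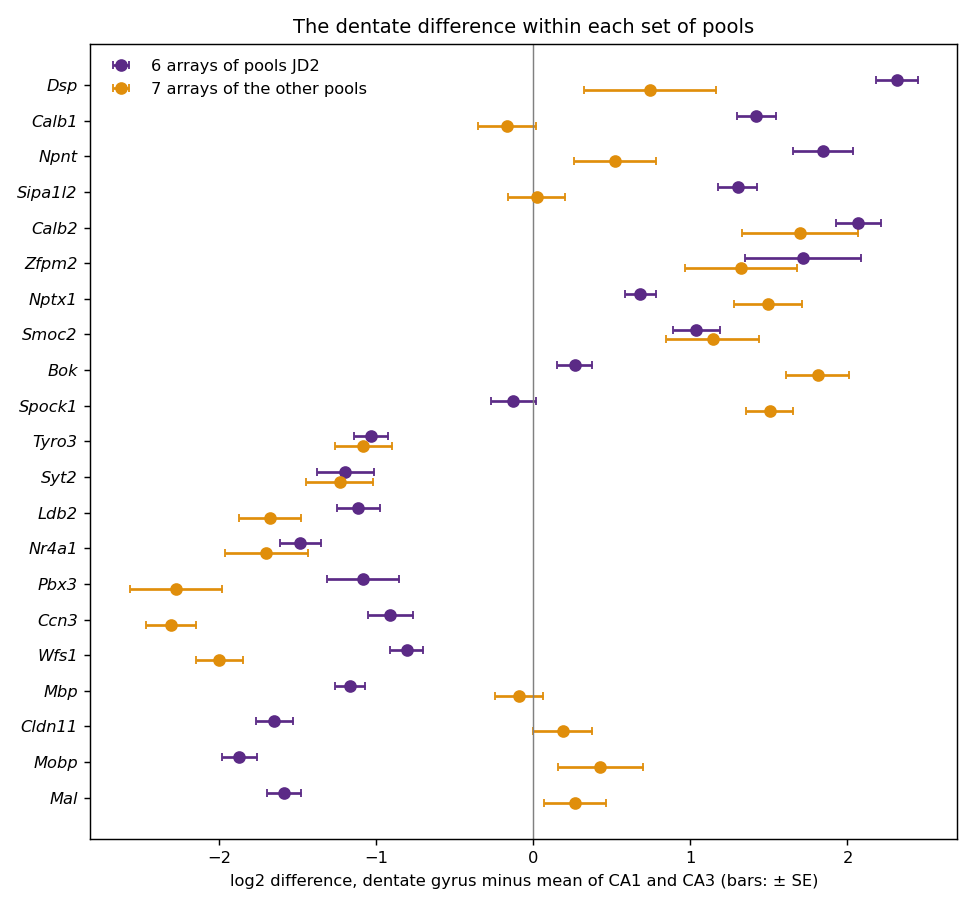
Log2 difference of dentate gyrus from the mean of CA1 and CA3, fitted within the 6 JD2 arrays (purple) and within the 7 other arrays (orange), with standard errors as bars. Calb2 stands at 2.07 and 1.70 and Calb1 at 1.42 and -0.17, and the myelin genes at the foot of the plot lie below 0 in the JD2 pools.

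Myelin genes were tested for 10 of 13 and none was called. All 10 had a difference below 0, against 2498 of all 4954 genes tested, and the median was -0.60. Mbp, myelin basic protein, measured 1452 and 2183 in 129 and 1978 and 3256 in B6 in the dentate gyrus, 2984 and 3068 in 129 and 4617, 3709 and 3751 in B6 in CA1 and 3390.3 and 1735 in 129 and 4475 and 3508 in B6 in CA3. Low values were those of the JD2 dentate arrays, of dentate gyrus 129 replicate 2 and of CA3 129 replicate 2. The difference of Mbp was -1.17 ± 0.10 in the JD2 pools and -0.09 ± 0.15 in the others, and the list median was -1.30 and 0.08. These values are from the brightest probe set of each gene, which for Mbp had -0.62 over the 13 arrays. Another Mbp probe set that passed the filter went the other way, at 0.32 ± 0.12. Its mean intensity was 176, against 2917 for the brightest. The summed intensity of the list ran from 4625 to 8399 in the dentate arrays, 7996 to 11644 in CA1 and 4714 to 12949.7 in CA3; no listed gene was at the floor on all 13 arrays. The part of white matter in the differences between fields was not tested.

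Lists of other cell types had no called gene beside those named. For astrocytes 15 of 15 were tested with a median of -0.01, for microglia and macrophages 9 of 14 with -0.04, for endothelium 10 of 11 with -0.10, and for immature neurons 14 of 19 with 0.00. The short lists lay lower, with a median of -0.30 for 2 tested of 4 blood genes, -0.26 for 4 of 9 choroid plexus genes and -0.12 for 3 of 5 striatal genes, while 6 of 12 meningeal genes had -0.01. Hilar mossy cell genes, apart from Calb2, were not called: 6 of 13 were tested with a median of 0.04. Gal, the neuropeptide galanin, had all dentate values, 92.0 to 119, above all CA values at a difference of 0.41 ± 0.14 (adjusted p = 0.266). Dividing cell genes were tested for 5 of 20, with a median of -0.09 and 3 at the floor on all 13 arrays.

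Ttr, transthyretin of the choroid plexus, a tissue next to the hippocampus, ranged widely within each field. It measured 1720.2 and 461 in 129 and 162 and 119.7 in B6 in the dentate gyrus, 608 and 992 in 129 and 479, 115 and 62.4 in B6 in CA1 and 2419 and 97.7 in 129 and 3328 and 620.0 in B6 in CA3, with a difference of -0.55 ± 0.90 (adjusted p = 0.932). Dcn, decorin of the meninges, was 167 to 489.9 in the dentate gyrus, 536 to 848 in CA1 and 323 to 928 in CA3 (-0.94 ± 0.27, adjusted p = 0.157). The part of either tissue in the other differences was not tested. Of the thalamus and habenula list 10 of 13 were tested, with Calb2 as the only called gene and a median of 0.01; Calb2 and Frzb stand on that list as well as on their own. The neocortex and subiculum list had Nptx1 as its called gene among 10 tested of 11 and a median of -0.06.

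**Figure D4:**
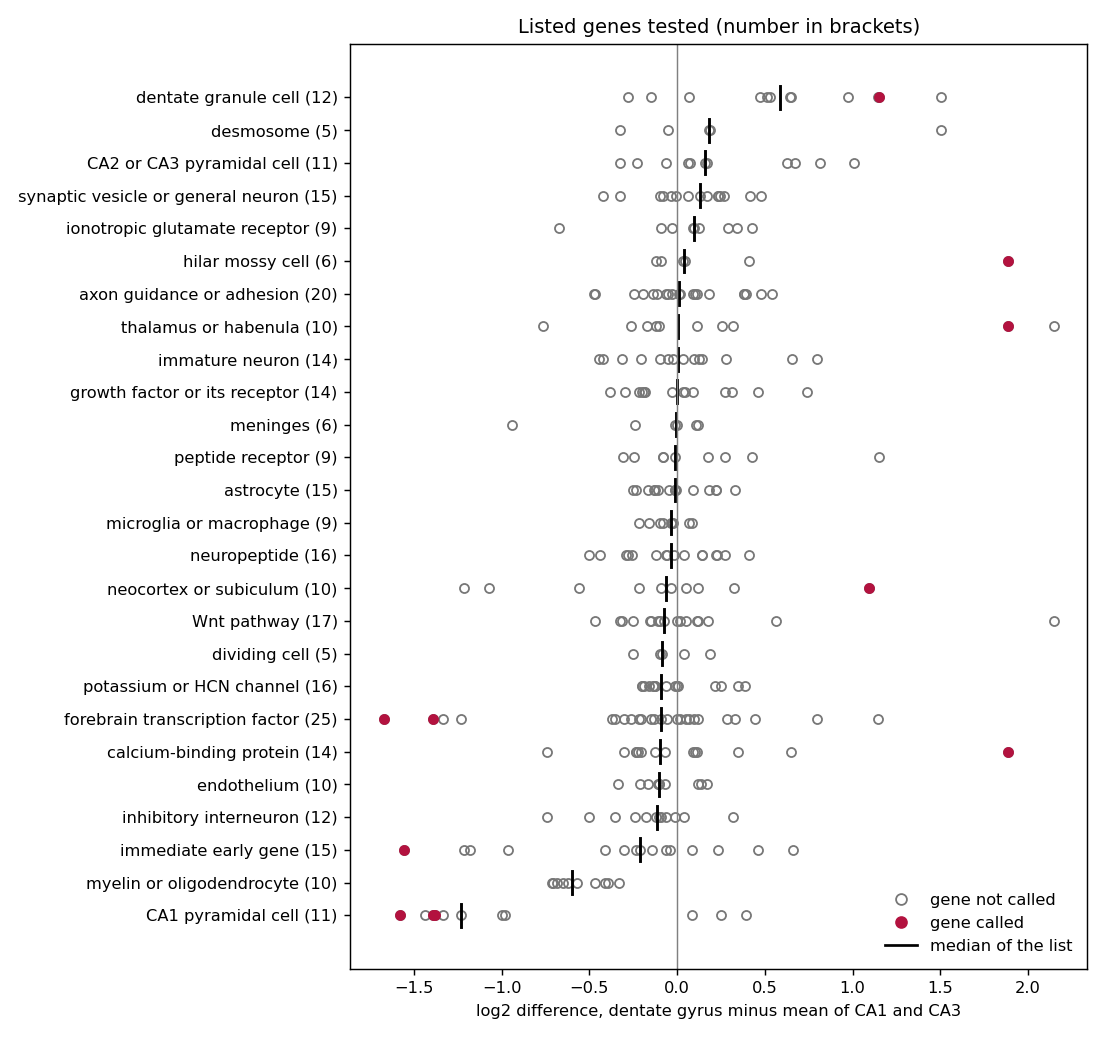
Log2 difference of dentate gyrus from the mean of CA1 and CA3 for the tested genes of each list with at least 5 of them, sorted by the median of the list (black bar); open circles are genes not called and filled circles called genes. Medians run from -1.23 for the CA1 markers to 0.59 for the granule cell markers, and all 10 myelin genes lie below 0 by their brightest probe sets.

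Receptors and channels added no called gene against the CA mean. Potassium and HCN channels were tested for 16 of 27 (median -0.09), growth factors and their receptors for 14 of 27 (median 0.00), neuropeptides for 16 of 21 (median -0.04) and axon guidance or adhesion genes for 20 of 33 (median 0.01). Ionotropic glutamate receptors were tested for 9 of 12 (median 0.10). Among them Grik1, a kainate receptor subunit, was 27.0 to 40.1 in the dentate gyrus, 53.0 to 63.8 in CA1 and 39.7 to 60.8 in CA3 (-0.67 ± 0.16, adjusted p = 0.0706), and Grik2 had 0.43 ± 0.17 (adjusted p = 0.392). Grik1 passed the filter on dim genes through CA1 alone. Tgfb2, a growth factor, was higher than in CA1 (1.22 ± 0.23, adjusted p = 0.0083) and 0.26 ± 0.24 from CA3. Gabra2, a GABA-A receptor subunit, was low in the B6 arrays outside the JD2 pools: it measured 574 and 466 in 129 and 474 and 149 in B6 in the dentate gyrus, 386 and 337 in 129 and 315, 76.4 and 78.8 in B6 in CA1 and 496 and 602 in 129 and 534 and 137 in B6 in CA3.

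**Figure D5:**
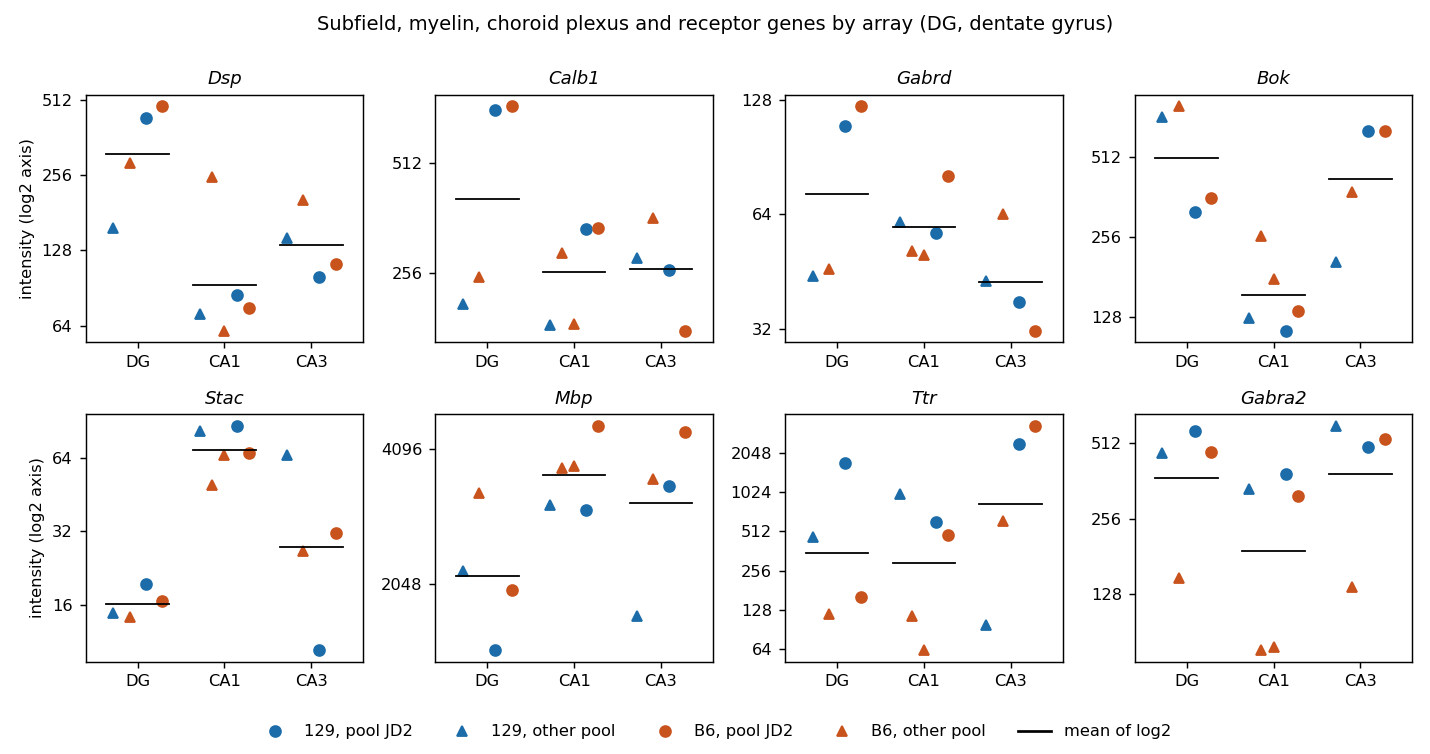
Intensity of 8 genes on each of the 13 arrays, on a log2 axis, with strain as colour, JD2 pools as circles and other pools as triangles. Calb1 and Gabrd are highest in the JD2 arrays of the dentate gyrus, Bok is higher in the other dentate arrays, and the CA3 129 array outside the JD2 pool has Stac at 65.6, within the range of CA1.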

How the data were processed

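Total RNA of each sample was made into biotin-labelled target and hybridized to 1 one-colour Affymetrix array, per the labels' protocols. The authors deposited 1 intensity per probe set and array on a linear scale, of which 5.97% lie below 0; the software, background correction and scaling behind them are not stated in the labels or headers. The values were used without further scaling, raised to a floor of 10.4 (the 20th percentile of all values) and taken as log2. Of 12488 probe sets, 66 controls were left out; the platform's annotation, which can be old, gave 10833 of the others 1 symbol, 396 several and 1193 none. The brightest probe set stood for each of 8251 genes over 148 arrays, 2 arrays with identical values in all probe sets, neither of them among the 13, being left out. A gene was tested if its strain-adjusted mean passed 5.73 (log2) in at least 1 field, which left 4954.

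The fits used limma 3.58.1 under R 4.3.3 (lmFit, contrasts, eBayes with trend, two-sided p, Benjamini-Hochberg over all genes tested). Tested on simulated data of 4954 genes for the contrast with the CA mean, it recovered 98.5% of genes changed by 1.5 (log2) and all of those changed by 2 or 3, with 1 false call. The simulated noise was independent between arrays, with no likeness within pools. The changed genes had means more than 1 (log2) above the dim filter and were shifted alike against CA1 and CA3. The deposited data differ in these respects, so the recovery does not carry over to them. Dsp at 1.50 and Frzb at 2.15 were not called there. The number of arrays limits the precision. Replicates are arrays with separate titles; nothing says that the pools hold separate litters, so p-values measure the spread between these samples.

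Members and lists were chosen with earlier results of these data known. Genes named are the 12 called genes with the largest difference, Dsp and Calb2, and for each list up to 4 called members or, with none, the 2 largest. Chosen after their values were seen were Prox1, Calb1, Egr1, Fos, Jun, Nr4a2, Dusp1, Sez6, Mycl, Klf5, Stac, Fn1, Spock1, Sipa1l2, Gal and Mbp, the genes listed as not called beside the CA1 markers, and those named in the closing section for their spread or pool difference. Pool codes come from the titles; of 8 pairs of arrays with the same pool name in different fields, 7 correlated above 0.1 in their deviations from the field and strain means (0.091 to 0.497), and of 16 pairs of the same strain and another code none did. Pairs of different strains and fields, which share no animals, ran from -0.32 to 0.43. The highest was CA3 129 replicate 2 with dentate gyrus B6 replicate 2. With so few arrays per field and strain, the deviations of replicates are also pushed to opposite signs. The check therefore cannot tell shared animals from other sources of likeness. The same names were taken as the same animals, which was not tested. Alternatives tried were the floor, an offset, quantile normalization, the filter, single probe sets, other arrays in the fit, the prior, blocks, the Gapdh ratio, each pool set, each strain and each array left out. Promoter sequences were matched by symbol for 62 of 89 genes named or listed for naming. Figures were drawn with matplotlib 3.10.9.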

Additional observations from a re-analysis of the deposited data

Results flagged for a closer look

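Single arrays stood apart from the rest of their field for 16 of 255 sets of 4 or 5 arrays checked, where chance gives about 1 in 20. The gap to the nearest other array took more of the range of the field than Dixon's test allows at 95%. In the dentate gyrus, Nr4a1 was 41.6 in 129 replicate 2 against 73.8 to 79.0 in the others, and Jun was 375 in the same array against 435 to 446. Sez6 was 502 in dentate 129 replicate 1 against 442 to 447, and Kl was 156 there against 58.4 to 63.0. Dentate B6 replicate 1 had Wnt7b at 49.4 against 59.3 to 59.8, and dentate B6 replicate 2 had Il16 at 103 against 79.6 to 81.6 and Gabra2 at 149 against 466 to 574. In CA1, B6 replicate 2 had Dsp at 251 against 61.0 to 85.2 and Kdr at 89.6 against 52.8 to 61.4; 129 replicate 2 had Neurod1 at 123 against 69.0 to 76.5, and B6 replicate 1 had Homer2 at 147 against 307 to 374. In CA3, 129 replicate 2 had Kcnk1 at 252 against 525 to 542, 129 replicate 1 had Bdnf at 425 against 532 to 556, B6 replicate 1 had Tac1 at 20.1 against 42.3 to 46.0, and B6 replicate 2 had Grik2 at 57.0 against 79.0 to 83.9 and Gabra2 at 137 against 496 to 602.

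The dentate contrast differed between the JD2 pools and the others at an adjusted p under 0.05 (limma, an interaction added after the data were seen) for 16 genes. The difference of the contrasts, JD2 minus other, was below 0 for the myelin and glial genes Mobp (-2.28), Mal (-1.83), Cldn11 (-1.83), Mbp (-1.07) and Qdpr (-0.95). It was also below 0 for Spock1 (-1.62), Bok (-1.53), Socs2 (-1.14) and Me1 (-1.02). It was above 0 for Rbp4 (2.00), Calb1 (1.61), Ccn3 (1.39), Sipa1l2 (1.27), Wfs1 (1.18), Parm1 (1.14) and Bhlhe40 (1.13). Leaving out either JD2 dentate array, dentate gyrus B6 replicate 2 or CA3 B6 replicate 1 ended all 16 calls, and without CA1 B6 replicate 2 there were 27. The other 8 fits without 1 array gave 2 to 21.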

How the results depend on the processing

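All 359 values of the 12 called genes under the alternatives kept their sign, and 275 kept the call. In the 13 fits without 1 array, Calb2, Nr4a1, Syt2 and Pbx3 kept it throughout. The count against the CA mean, 12, was 6 with an offset of 50, 0 without the filter on dim genes (639 at an unadjusted p under 0.05), 0 in the 129 (169) and 0 in the B6 arrays alone (260), 30 with all neural arrays in the fit, 52 in the JD2 and 25 in the other pools, and 7 to 21 without 1 array. The count against CA1, 60, was 28 with the offset, 39 without the filter, 39 with the DBA arrays, 0 in 129 (268) and 11 in B6 alone, and 45 to 66 without 1 array. The count against CA3, 0, was 8 with all neural arrays, 66 in the JD2 and 7 in the other pools, and 0 without 1 array. The strain difference, 0 genes, was 1 without the filter and 0 in each fit without 1 array. The pool difference, 16 genes, was 0 without the filter (624), 0 without the trend (403) and 0 to 27 without 1 array. The fits within 1 strain leave 3 or 4 residual degrees of freedom, that of the JD2 pools 2 and that of the other pools 3. Without the filter 8251 genes are tested. The cause of the changes was not tested.

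With the replicate block by pool code, the counts were 27 against the CA mean, 76 against CA1 and 1 against CA3, and all 12 genes remained called. With a block of identical pool names they were 17, 54 and 2, with 8 of the 12 called; with the pool code as a random block (consensus correlation 0.326) they were 26, 69 and 0. The strain difference with the block remained at 0 genes.

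Genes with an adjusted p over 0.05 in the fit of 13 arrays changed sign in some alternatives. The difference from the CA mean over 13 arrays was 0.19 for Mcm7, -0.71 for Cldn11, -0.21 for Kdr, -0.55 for Ttr, -0.29 for Igf2, -0.28 for Penk, -0.12 for Tac1, -0.32 for Jup, 0.43 for Npy1r, 0.53 for Gabrd, 0.35 for Kcna1, 0.48 for Sema3e, 0.65 for Calb1, 0.67 for Spock1, 0.47 for Lct, 0.51 for Tiam1 and -0.23 for Kl. In the other pools alone this was -0.12 for Mcm7, 0.19 for Cldn11, 0.00999 for Ttr, 0.25 for Jup, -0.16 for Npy1r, -0.23 for Gabrd, -0.17 for Calb1, -0.0106 for Lct and -0.0113 for Tiam1. The value was 0.12 for Penk, 0.35 for Tac1, -0.31 for Sema3e and -0.13 for Spock1 in the JD2 pools alone; -0.0571 for Mcm7, 0.54 for Ttr, 0.14 for Igf2, 0.0667 for Tac1 and 0.0571 for Kl in the 129 arrays alone. It was 0.0762 for Kdr in the B6 arrays alone; 0.00906 for Ttr, 0.0573 for Igf2 and 0.13 for Tac1 with identical pool names as a replicate block; 0.00247 for Kdr with the Gapdh ratio as a covariate. In the fits without 1 array Kdr ran from -0.40 to 0.00881 (opposite sign without dentate gyrus 129 replicate 1), Jup ran from -0.64 to 0.0429 (opposite sign without dentate gyrus B6 replicate 1), Kcna1 ran from -0.058 to 0.79 (opposite sign without dentate gyrus 129 replicate 2 and without dentate gyrus B6 replicate 2) and Kl ran from -0.55 to 0.00236 (opposite sign without CA3 B6 replicate 1).

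Values near the floor limit dim genes such as Zfpm2 and Pbx3, and no detection call was used. Zfpm2 and Wnt7b passed the filter on dim genes through the dentate gyrus alone, and Pbx3, Stac, Klf5, Grik1, Kdr and Tac1 through CA1 alone.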

Other observations

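The strain B6 had 2 levels of Gabra2, a GABA-A receptor subunit. In the 3 B6 arrays of the JD2 pools it was 315 to 534 (median 474), and in the 4 other B6 arrays among the 13 it was 76.4 to 149. All 44 B6 neural arrays outside the JD2 pools, those 4 included, lay between 10.4 and 149, with a median of 55.8. The 3 JD2 arrays of 129 had 386 to 574 and the 40 other neural arrays of 129 had 10.4 to 602. At 17 of 18 other genes that differ between the strains, the JD2 arrays of B6 went with B6.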
